A study of Mus musculus with 12 samples.

Results

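The response to TCDD was described in the ET cell arrays with low metallothionein signal, 7 of the 12 arrays of the study. They were chosen by 1 measured value: a log2 level below 9 for Mt1, a zinc-binding metallothionein, at the brighter of its 2 probe sets. Of the 7 arrays, called Mt-low here, 3 came from cells given 5 nM TCDD, 1 each after 2, 4 and 6 h, and 4 from cells given the solvent 1,4-dioxane at 0.05% by volume, with 1 array at 2 h, 2 at 4 h and 1 at 6 h. The other 5 arrays, called Mt-high, held the remaining TCDD array of each time and 1 Dioxane array each at 2 and 6 h. The labels describe ET cells as a cell line from the cortical epithelium of the fetal mouse thymus; every culture was the same line in the same serum-containing medium, without a genetic change, and total RNA was hybridised to Affymetrix arrays. According to the design text the 2 arrays of a treatment and time are biological duplicates, but which step was repeated is not said; p-values therefore reflect the spread among arrays, which may in part be technical. Titles set treatment and time. The treatment field of the Mt-low 4 h TCDD array named the solvent, while its title, description and protocol named TCDD, and the description and protocol of the Mt-low 6 h Dioxane array gave 4 h.

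TCDD, a persistent dioxin, is the classical ligand of AhR, the aryl hydrocarbon receptor. This transcription factor is held in the cytosol by Hsp90 until a ligand arrives. It then pairs with Arnt in the nucleus, binds short DNA elements with the core GCGTG and switches on genes of xenobiotic metabolism, together with genes such as Tiparp that restrain the receptor again. The thymus is a classical target organ of dioxins, which shrink it and disturb the maturation of thymocytes, and thymic epithelium expresses the receptor. Metallothioneins buffer zinc and copper and respond to metals, glucocorticoids and oxidative stress.

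Within the Mt-low arrays Mt1 stood at 7.3, 7.4 and 7.1 with TCDD and at 7.3, 7.2, 7.4 and 7.4 with Dioxane (log2 levels; here and below the TCDD arrays are in the order 2, 4 and 6 h, and the Dioxane arrays are that of 2 h, both of 4 h and that of 6 h). Mt2, its neighbour in function, was at 6.6, 6.6 and 6.8 with TCDD and at 6.4, 6.8, 6.7 and 6.7 with Dioxane. Mt1 thus ranged from 7.1 to 7.4 with TCDD and from 7.2 to 7.4 with Dioxane, and Mt2 from 6.6 to 6.8 with TCDD and from 6.4 to 6.8 with Dioxane, so the treatments overlapped at both. The highest Mt1 level among the Mt-low arrays was 7.4 and the lowest among the Mt-high arrays 9.6, so no array lay near the threshold; these values chose the arrays and are given as a description.

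**Figure D1:**
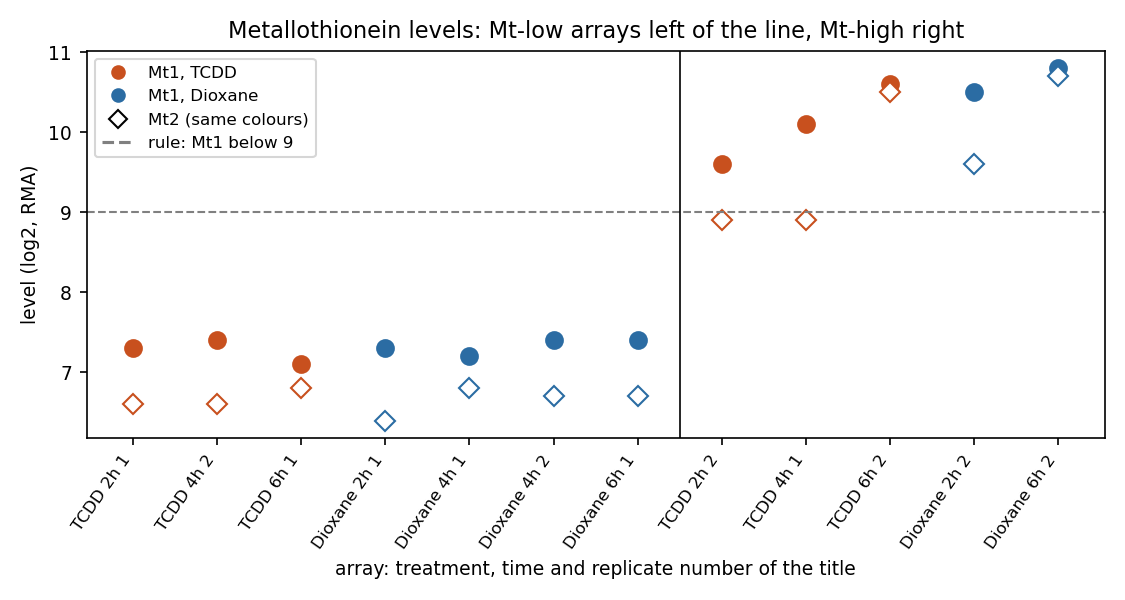
Log2 levels of Mt1 (filled circles) and Mt2 (open diamonds) on each of the 12 arrays, TCDD in orange and Dioxane in blue; the dashed line is the rule, Mt1 below 9. The 7 Mt-low arrays span 7.1 to 7.4 for Mt1 and the 5 Mt-high arrays 9.6 to 10.8.

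TCDD raised 12 named genes and lowered 1 in the Mt-low arrays. The strongest were Cyp1a1 and Tiparp, followed by Cpox, Cyp1b1 and Cldnd1, and the lowered gene was Angptl4. The test was limma on the log2 values with time as a factor, 3 TCDD against 4 Dioxane arrays, over 15762 probe sets. With a Benjamini-Hochberg adjusted p under 0.05, 18 probe sets passed (0.114% of those tested), 17 higher and 1 lower; 17 of these 18 had TCDD and Dioxane arrays that did not overlap. They belonged to 13 genes, and 1 of them, 1436448_a_at, has no single gene symbol (0.72 ± 0.06 SE, adjusted p = 0.0407). An unadjusted p under 0.05 was reached by 3277 probe sets (20.8%; 1718 higher and 1559 lower), where 788 would be expected by chance. With the replicate number of the titles as a block, which leaves 3 pairs and 2 residual degrees of freedom, 0 probe sets passed. Without any single array the limma count was 0 as well, except that 1 probe set of Tiparp passed without the 4 h TCDD array, the one with the contradictory treatment field. The count was 6 with the 6 h Dioxane array taken as 4 h, 148 after quantile normalization of the 7 arrays alone and 1366 with limma's trend and robust moderation. The probe sets past the test, and those of the 6 further genes described after them, kept their sign in each of the 20 alternative settings in which they were tested, but not always their size: 11 of these 27 probe sets changed by more than 1.5 times in a setting with the poly-A control level described below.

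Over the whole table, all 3 TCDD arrays lay above all 4 Dioxane arrays for 434 probe sets (2.75%) and below them for 768 (4.87%). A difference of at least 1 in log2 between the TCDD array and the Dioxane level of its own time was found at all 3 times for 20 probe sets in the higher direction (0.127%) and for 1 in the lower direction (0.00634%). With a difference of at least 0.5 these numbers were 155 (0.983%) and 19 (0.121%). The median log2 change of all tested probe sets was -0.03.

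External controls differed between the treatments within the Mt-low arrays. The 12 probe sets for the bacterial transcripts dap, lys, phe and thr, poly-A RNAs that the manufacturer supplies for addition to a sample before labelling, averaged 8.86 ± 0.15 in the TCDD arrays and 9.38 ± 0.10 in the Dioxane arrays (log2, SD, n = 3 and 4). TCDD minus Dioxane was -0.52, and each of the 12 probe sets was lower in all 3 TCDD arrays than in any Dioxane array (exact permutation test, two-sided, p = 0.0571, the smallest that the 35 arrangements allow). The 7 probe sets for the hybridisation controls bioB, bioC and bioD overlapped between the treatments (difference -0.10, exact permutation p = 0.8). With the poly-A control level as a covariate, chosen after seeing the data, 0 probe sets passed in the 7 arrays and 16 in all 12 arrays with the array set as a term. With the covariate in the 7 arrays 8 probe sets were smaller by more than 1.5 times: Cpox stood at 1.42 (1422492_at, against 2.53 without it), Cyp1b1 at 1.07 and 0.93 (against 1.95 and 1.74), Nfe2l2 at 0.91 (1.58), Nr3c1 at 0.79 and 0.47 (1.24 and 1.66), Tcf21 at 0.68 (1.11) and Akr1c14 at 0.14 (1.33). In the 12 arrays this held for Jak1, at 0.75 and 0.87 (against 1.24 and 1.32), and Rnpc3, at 0.51 (0.86). Cyp1a1 was at 6.06 and 6.04 in these settings, against 5.78. Other estimates grew in the 7 arrays, among them Gpc1 at 2.73 (against 1.87), Aldh3a1 at 2.95 (2.04) and Tiparp at 4.09 (1452161_at, 3.50). Every TCDD array had a lower control level than any Dioxane array there, so the fit separates control level from treatment poorly. The part of the control level in the results was not tested. Affymetrix's 3' minus 5' difference for actin, a sign of RNA integrity, was 0.7 to 0.8 in both treatments.

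Markers of thymic epithelium were in part below the filter (a mean log2 level of 4 over the 12 arrays). Of 14 cortical marker genes on the array 9 passed it, among them Ctsl at 11.30, Cxcl12 at 12.40, Krt8 at 5.00, Dll4 at 4.56 and Foxn1 at 4.23. The 5 that did not were Epcam (3.47), Krt18 (3.91), Prss16 (3.91), Ly75 (3.50) and Cdh1 (2.80). Ctsl and Cxcl12 are also expressed by other stromal cells, and levels of different probe sets are not on a common scale. All 16 fibroblast and mesenchyme markers passed the filter, among them Col1a1 at 12.30 and Vim at 12.24. Of 11 medullary marker genes 4 passed. Of 8 endothelial marker genes 3 passed, among them Eng at 7.20 and Flt1 at 5.31, while Pecam1 (3.17) did not. Of 11 thymocyte and haematopoietic marker genes 5 passed, among them Cd3e at 5.50 and Cd4 at 5.44, while Ptprc (2.80) did not. None of these lists had a member past the test. Summed fibroblast and mesenchyme levels ran from 164.7 to 167.2 with TCDD and from 162.7 to 166.5 with Dioxane, and summed cortical levels from 56.3 to 57.6 and from 56.6 to 57.8. With the general epithelial markers Epcam and Krt18 below the filter, the identity of the line is that of the labels.

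Cyp1a1, the cytochrome P450 that is the most widely used readout of AhR, stood at 9.3, 10.2 and 10.1 with TCDD and at 4.0, 4.3, 4.0 and 4.2 with Dioxane. Its Dioxane levels were close to the filter, and every TCDD array was at least 5 log2 units higher. The change was 5.78 ± 0.17 (SE), 54.9-fold (limma adjusted p = 0.00394). Folds from such low levels are compressed on arrays of this kind, so the size is uncertain.

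Tiparp, an ADP-ribosyltransferase that AhR induces and that dampens it, was measured by 3 probe sets, and all 3 passed. At 1452161_at it was 7.4, 7.0 and 7.5 with TCDD and 3.7, 3.8, 3.8 and 3.8 with Dioxane. At 1452160_at it was 7.7, 7.4 and 7.1 with TCDD and 3.1, 3.5, 3.2 and 3.5 with Dioxane. The groups were far apart at both, and at 1452160_at the TCDD arrays were lower at each later time. The changes were 3.50 ± 0.12 and 4.08 ± 0.19 (limma adjusted p = 0.0047 and 0.0124), and 1426721_s_at gave 3.80 ± 0.19 (0.0125). The Dioxane levels of 1452161_at and 1452160_at were below the filter of 4 (means of 3.77 and 3.33), so these probe sets were tested only because their TCDD arrays were high, and their differences start from levels near the low end of the array and are uncertain in size. The Dioxane arrays of 1426721_s_at, at 4.5 to 5.0, were above it.

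Cyp1b1, another P450 of the family, was measured by 2 probe sets. At 1416613_at it was 9.8, 9.9 and 9.9 with TCDD and 7.6, 7.8, 7.8 and 8.4 with Dioxane. The TCDD arrays were within 0.1 of each other, while the 6 h Dioxane array was the highest of its group. The change was 1.95 ± 0.14, 3.86-fold (limma adjusted p = 0.0287), and 1416612_at gave 1.74 ± 0.14 (0.0407).

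Cpox, coproporphyrinogen oxidase, carries out a late step of haem synthesis. At 1422492_at it was 8.3, 8.4 and 8.0 with TCDD and 5.6, 5.6, 5.6 and 6.0 with Dioxane. It rose 5.78-fold (2.53 ± 0.16, limma adjusted p = 0.0219), and 1422493_at rose by 2.02 ± 0.13 with the same adjusted p. Of 11 tested genes for haem synthesis and breakdown it was the 1 past the test. The others with the largest changes were Uros, uroporphyrinogen synthase (-0.30 ± 0.09, adjusted p = 0.15), and Alad, which makes porphobilinogen (-0.29 ± 0.06, adjusted p = 0.111). In both the TCDD arrays lay below all Dioxane arrays.

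**Figure D2:**
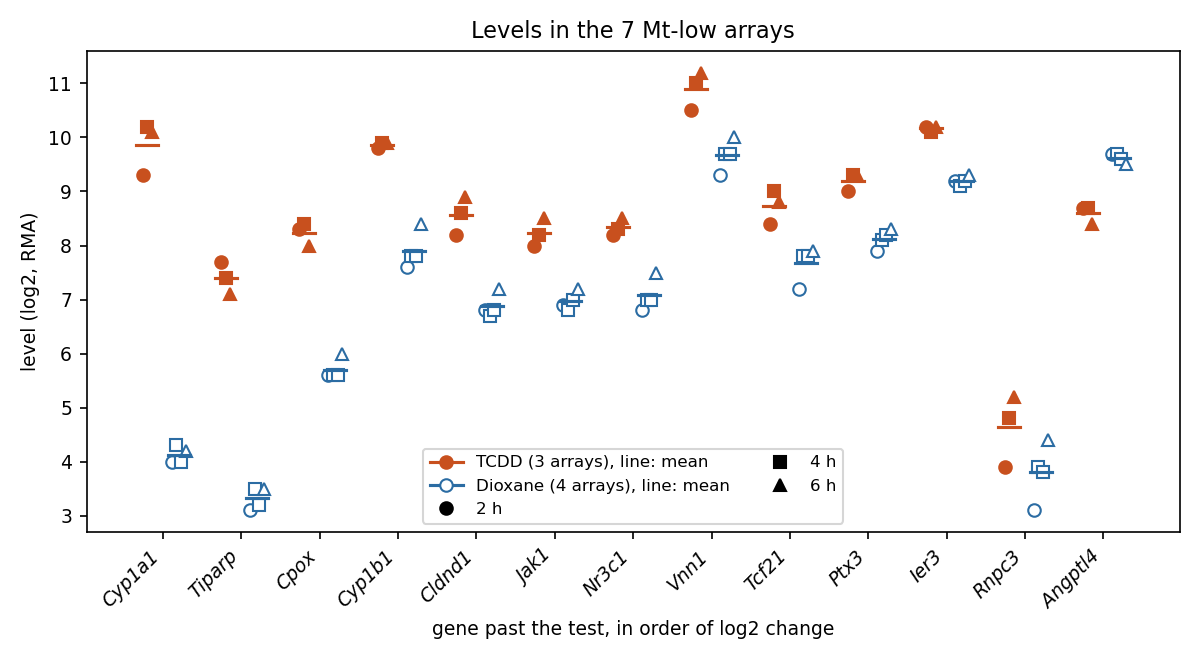
Log2 levels of the 13 genes past the test in the 7 Mt-low arrays, each gene by its probe set of largest change, TCDD filled orange and Dioxane open blue, with the symbol giving the time and the line the mean. Cyp1a1 spans 9.3 to 10.2 with TCDD and 4.0 to 4.3 with Dioxane, and only Rnpc3 has overlapping groups.

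The start regions of the 4 genes above are shown because the AhR-Arnt core GCGTG lies in each of them. Sequences are those of RefSeq for GRCm38.p6, from 250 bases before to 50 bases after the annotated start, in the direction of the gene. Capitals mark the core, read as GCGTG on the printed strand or as CACGC where it lies on the other.
Cyp1a1, chr9:57697363-57697662, plus strand: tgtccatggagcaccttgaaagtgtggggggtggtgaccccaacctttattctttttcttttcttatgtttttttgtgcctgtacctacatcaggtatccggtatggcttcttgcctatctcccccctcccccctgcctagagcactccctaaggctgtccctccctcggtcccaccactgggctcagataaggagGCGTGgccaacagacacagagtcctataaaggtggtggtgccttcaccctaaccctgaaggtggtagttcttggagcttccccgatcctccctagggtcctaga
Tiparp, chr3:65528197-65528496, plus strand: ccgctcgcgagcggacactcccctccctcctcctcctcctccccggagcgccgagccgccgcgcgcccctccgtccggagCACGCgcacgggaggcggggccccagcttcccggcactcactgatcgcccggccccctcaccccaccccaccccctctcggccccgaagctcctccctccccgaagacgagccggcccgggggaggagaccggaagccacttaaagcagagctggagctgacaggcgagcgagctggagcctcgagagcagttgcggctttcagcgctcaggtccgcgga
Cyp1b1, chr17:79715012-79715311, minus strand: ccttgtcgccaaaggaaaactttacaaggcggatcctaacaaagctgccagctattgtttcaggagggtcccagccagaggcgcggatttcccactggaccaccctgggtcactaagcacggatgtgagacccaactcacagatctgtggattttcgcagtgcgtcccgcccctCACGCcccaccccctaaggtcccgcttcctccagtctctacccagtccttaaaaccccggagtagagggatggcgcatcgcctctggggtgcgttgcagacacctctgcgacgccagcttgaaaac
Cpox, chr16:58669958-58670257, plus strand: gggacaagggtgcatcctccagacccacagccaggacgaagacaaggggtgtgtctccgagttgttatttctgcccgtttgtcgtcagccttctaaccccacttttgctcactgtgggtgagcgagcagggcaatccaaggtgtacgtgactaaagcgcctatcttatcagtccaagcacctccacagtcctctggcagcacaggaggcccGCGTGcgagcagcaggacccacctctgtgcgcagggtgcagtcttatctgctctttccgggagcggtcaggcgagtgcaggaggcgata
Of the 12 genes called higher, 10 had a window in the table, and 6 of these held the core on either strand, the other two being Jak1 and Tcf21. Of all 32841 windows 32.4% held it. The core includes a CG pair, and windows differ in these, with 4 in that of Cyp1a1, 29 in Jak1 and 34 in Tiparp. The windows were not matched for CG pairs, and enrichment was not tested. The window is short, and a match is a stretch of letters, not a measured binding site.

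The other genes that rose encode membrane, secreted and regulatory proteins. Cldnd1, a claudin-like membrane protein, was 8.2, 8.6 and 8.9 with TCDD and 6.8, 6.7, 6.8 and 7.2 with Dioxane (1429555_at), a change of 1.67 ± 0.10 (limma adjusted p = 0.0219); 1431293_a_at gave 1.66 ± 0.18 (0.0756). Vnn1, a membrane-anchored pantetheinase that releases cysteamine and vitamin B5, was 10.5, 11 and 11.2 with TCDD and 9.3, 9.7, 9.7 and 10.0 with Dioxane. Its time-matched differences of 1.2, 1.3 and 1.2 were nearly equal, and the change of 1.24 ± 0.06 had a limma adjusted p of 0.0124. Ptx3, a secreted pentraxin of innate immunity and of the hyaluronan matrix, was 9.0, 9.3 and 9.3 with TCDD and 7.9, 8.1, 8.2 and 8.3 with Dioxane (1.09 ± 0.06, adjusted p = 0.0219). For all 3 genes the lowest TCDD array stood above the highest Dioxane array.

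Jak1, the tyrosine kinase shared by interferon and IL-6 type cytokine receptors, was 8.0, 8.2 and 8.5 with TCDD and 6.9, 6.8, 7.0 and 7.2 with Dioxane (1433803_at). It rose by 1.24 ± 0.08 (limma adjusted p = 0.0219), and 1433805_at gave 1.32 ± 0.15 (0.079). Nr3c1, the glucocorticoid receptor, which mediates thymocyte loss under steroids, was 8.2, 8.3 and 8.5 with TCDD and 6.8, 7.0, 7.0 and 7.5 with Dioxane (1421867_at). It rose by 1.24 ± 0.09 (adjusted p = 0.0287), and 1460303_at gave 1.66 ± 0.17 (0.073). In both genes the second probe set showed no overlap either.

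Tcf21, a transcription factor of mesenchymal progenitors, was 8.4, 9.0 and 8.8 with TCDD and 7.2, 7.8, 7.8 and 7.9 with Dioxane, a rise of 1.11 ± 0.08 (limma adjusted p = 0.0287). Ier3, an immediate early gene that modulates cell survival, was 10.2, 10.1 and 10.2 with TCDD and 9.2, 9.1, 9.2 and 9.3 with Dioxane. Its level hardly differed between arrays of 1 treatment, and the rise was 0.95 ± 0.06 (adjusted p = 0.0219). Rnpc3, a protein of the minor spliceosome, was 3.9, 4.8 and 5.2 with TCDD and 3.1, 3.9, 3.8 and 4.4 with Dioxane. Its groups overlapped, since levels were higher at 6 h than at 2 h in both, and its change within times was 0.86 ± 0.07 (adjusted p = 0.0348). Its Dioxane mean of 3.80 was below the filter (3.93 over all 6 Dioxane arrays), so it was tested only through the TCDD arrays, and its size is as uncertain as that of Tiparp at such levels.

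Angptl4, a secreted inhibitor of lipoprotein lipase, was the 1 gene that fell. It was 8.7, 8.7 and 8.4 with TCDD and 9.7, 9.7, 9.6 and 9.5 with Dioxane. The groups were separate by 0.8, and the change was -1.01 ± 0.06 (limma adjusted p = 0.0219), 2.01-fold lower.

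A further 6 genes differed by at least 1 in log2 at all 3 times without passing the test. Aldh3a1, an aldehyde dehydrogenase of the AhR battery, was 9.9, 10.2 and 10.6 with TCDD and 8.3, 8.2, 8.3 and 8.0 with Dioxane (2.04 ± 0.18, limma adjusted p = 0.0606). Gpc1, a glypican that carries heparan sulfate on the cell surface, was 7.5, 8.0 and 8.1 with TCDD and 6.2, 6.1, 6.1 and 5.7 with Dioxane (1.87 ± 0.19, 0.073). Nfe2l2, which encodes NRF2, the regulator of antioxidant genes, was 8.6, 7.7 and 8.1 with TCDD and 6.5, 6.2, 6.1 and 7.0 with Dioxane (1.58 ± 0.18, 0.0808). In these 3 genes every TCDD array stood above every Dioxane array.

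Creb3l1, a transcription factor released from the endoplasmic reticulum by proteolysis, was 8.7, 9.4 and 9.1 with TCDD and 7.5, 7.4, 7.3 and 7.4 with Dioxane (1.69 ± 0.16, limma adjusted p = 0.073). Akr1c14, an aldo-keto reductase of steroid metabolism, was 5.7, 7.0 and 6.9 with TCDD and 4.4, 5.2, 5.6 and 5.9 with Dioxane (1.33 ± 0.15, 0.0812); its groups overlapped because levels were higher at later times in both. Ackr3, a scavenging receptor for the chemokine Cxcl12, was 4.3, 4.5 and 4.2 with TCDD and 5.8, 5.7, 5.4 and 5.6 with Dioxane (-1.29 ± 0.12, 0.073). Cxcl12 itself was 12.5, 12.4 and 12.4 with TCDD and 12.3, 12.3, 12.3 and 12.6 with Dioxane (0.04 ± 0.09, adjusted p = 0.822).

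Of the 20 genes listed as AhR targets, 17 were on the array, 11 passed the filter and 6 did not. Each gene was read by its probe set of highest mean. Past the test in the higher direction were 3 (Cyp1a1, Tiparp and Cyp1b1) and in the lower direction 0, against 10 and 1 of the 9391 tested genes. In 7 of the 11 all TCDD arrays lay above all Dioxane arrays, as in 235 of the 9391 tested genes (2.5%). The median change of the 11 was 1.29, against -0.04 over the 9391 genes. It depended on the filter: over the 17 genes on the array, with no filter on low values, it was 0.08. With the poly-A control level as a covariate it was 0.91 over the 11. Besides Aldh3a1 and Nfe2l2, the quinone reductase Nqo1 was 8.3, 9.2 and 9.6 with TCDD and 7.7, 7.6, 7.8 and 7.9 with Dioxane (1.29 ± 0.21, limma adjusted p = 0.0945). Xanthine dehydrogenase, Xdh, was 8.9, 9.1 and 9.3 with TCDD and 8.3, 8.3, 8.4 and 8.4 with Dioxane (0.75 ± 0.08, 0.073). These 4 genes had separate groups without passing.

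The remaining 4 tested AhR targets changed by 0.14 or less. They were Cyp2s1, a P450 of epithelia (0.02 ± 0.09), the monooxygenase Fmo2 (-0.09 ± 0.06), the channel subunit Lrrc8c (-0.10 ± 0.13) and the amino acid transporter Slc7a5 (-0.14 ± 0.07), with limma adjusted p from 0.286 to 0.918. Below the filter were Cyp1a2, Ahrr, Gsta2, Selenbp1, Scin and Htr7, with mean levels over the 12 arrays from 2.98 to 3.70. Ahrr, the repressor that competes with AhR for Arnt, averaged 3.43 with TCDD and 3.18 with Dioxane, near the low end of the array. Among 10 genes for the AhR complex and its coregulators 0 passed. Hsp90aa1, the chaperone that holds the receptor, had the largest change of this list, with 0.78 ± 0.07 (1426645_at, adjusted p = 0.052), 0.62 ± 0.08 and 0.43 ± 0.11 by its 3 probe sets.

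Other pathways had at most 1 member past the test. The list of NRF2 antioxidant targets had 0 of 14, with the largest change in Cbr3, a carbonyl reductase, at 9.4, 9.8 and 9.2 with TCDD and 8.8, 8.7, 8.8 and 8.6 with Dioxane (0.78 ± 0.11, limma adjusted p = 0.0945). Gclc, which makes the glutathione precursor, stood at 0.30 ± 0.08 (1424296_at, 0.137). The median of the list was 0.09. Among 18 tested AP-1 and immediate early genes Ier3 passed, while Maff, a small Maf partner of NRF2 (0.99 ± 0.23, 0.123), and the AP-1 subunit Fosl1 (0.91 ± 0.20, 0.111) did not.

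Cytokine genes of thymic stroma gave 0 calls among 10 tested. Tslp, a cytokine that acts on dendritic cells and lymphoid precursors, was 5.5, 6.0 and 5.8 with TCDD and 4.2, 4.2, 4.7 and 4.9 with Dioxane (1.28 ± 0.18, limma adjusted p = 0.0921). Gdnf, a neurotrophic factor, was 5.5, 4.9 and 5.1 with TCDD and 4.1, 4.6, 3.7 and 4.0 with Dioxane (1.05 ± 0.25, 0.125). Both had separate groups at low levels. Kitl, stem cell factor, gave 0.71 ± 0.21 by 1415855_at and overlapped.

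Chemokines had 0 of 13 past the test, and in 3 all TCDD arrays lay below all Dioxane arrays, as in 5.8% of all tested genes. Ccl7, a monocyte chemoattractant, was 6.0, 6.5 and 6.8 with TCDD and 6.9, 7.2, 7.2 and 7.2 with Dioxane (-0.67 ± 0.10, limma adjusted p = 0.0945). Ccl2, its close relative, was 7.3, 7.5 and 7.6 with TCDD and 7.9, 8.0, 8.0 and 8.1 with Dioxane (-0.53 ± 0.06, 0.073). Cx3cl1, fractalkine, gave -0.57 ± 0.07 (1415803_at, 0.0901). The IL-6 family list had 0 of 15 called by the probe set of highest mean, and Jak1 by its other probe set. Il6 was 4.7, 5.3 and 5.4 with TCDD and 6.3, 6.0, 6.0 and 6.0 with Dioxane (-0.94 ± 0.20, 0.111). Osmr, the oncostatin M receptor, gave 0.67 ± 0.09 (1418674_at, 0.0908) and overlapped.

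Growth factor pathways held members in both directions, and none passed. Among 12 tested EGF receptor ligands and feedback genes, Ereg, the ligand epiregulin, was 6.9, 6.4 and 6.7 with TCDD and 4.9, 4.7, 5.2 and 5.9 with Dioxane (1.42 ± 0.24, limma adjusted p = 0.0945). The phosphatase gene Dusp1 was 6.4, 6.6 and 7.0 with TCDD and 7.5, 7.3, 7.3 and 7.6 with Dioxane (-0.79 ± 0.10, 0.0914), and the receptor inhibitor Errfi1 gave -0.71 ± 0.15 (1416129_at, 0.111). In this list 2 genes had all TCDD arrays above and 5 all below the Dioxane arrays, against 2.5% and 5.8% of all tested genes, and the median change was -0.07.

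The BMP and TGF-beta responsive list had a median of -0.26 over 18 genes and 0 calls. Grem1, an antagonist of bone morphogenetic proteins, was 7.1, 7.5 and 8.0 with TCDD and 6.5, 6.2, 6.4 and 6.4 with Dioxane (1.14 ± 0.19, limma adjusted p = 0.0945). Id1, an inhibitor of differentiation induced by these proteins, was 6.8, 8.1 and 8.3 with TCDD and 8.6, 8.7, 8.8 and 8.7 with Dioxane (-0.92 ± 0.26, 0.154). The matrix protein gene Ccn2 gave -0.76 ± 0.18 (0.123) and overlapped. Antxr2, a receptor for collagen and anthrax toxin in the matrix list (1 of 19 called, Ptx3), was 7.1, 7.6 and 7.2 with TCDD and 5.6, 6.1, 6.1 and 6.5 with Dioxane (1.26 ± 0.17, 0.0914). Rgs4, which shortens G protein signals, was 3.7, 4.2 and 4.5 with TCDD and 5.2, 5.4, 5.5 and 5.4 with Dioxane (1416286_at, -1.22 ± 0.12, 0.073), while 1416287_at gave -0.46 ± 0.14.

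In the NF-kB feedback list 0 of 11 passed and 4 had separate groups in the higher direction (2.5% of all tested genes did), with a median change of -0.02. Birc3, an inhibitor of cell death induced by NF-kB, was 7.3, 7.2 and 6.9 with TCDD and 5.7, 6.2, 6.1 and 6.1 with Dioxane (1.14 ± 0.15, limma adjusted p = 0.0914). Among 14 clock genes the output gene Dbp was lower in all TCDD arrays, with -0.81 ± 0.08 (1438211_s_at, 0.073), and Bhlhe40, a repressor of the clock, gave -0.59 ± 0.09 (0.0945). The lists for the cell cycle, heat shock, hypoxia, sterol and fatty acid synthesis, unfolded protein response, interferon and antigen presentation, metallothioneins and zinc, RGS genes, and p53 targets with kinase inhibitors had 0 members past the test in either direction. Their medians ran from -0.11 to 0.08.

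Time-matched differences followed several courses. The kinase inhibitor gene Cdkn1a was 8.9, 6.6 and 6.1 with TCDD and 6.0, 5.8, 5.9 and 5.6 with Dioxane at 1424638_at, that is, differences of 2.9, 0.75 and 0.5 at 2, 4 and 6 h. The other probe set of Cdkn1a, 1421679_a_at, gave 0.9, -0.2 and -0.3. Differences were largest at 2 h in Klf9, a Krüppel-like factor (2.1, 0.95 and 0.6), in Maff (1.6, 1.05 and 0.3), in Fosl1 (1.5, 0.85 and 0.4), in Cdkn1b, the kinase inhibitor p27 (1.4, 0.75 and 0.4), and in Irf1, an interferon-induced factor (1.1, 0.4 and 0.1). Nfe2l2 (2.1, 1.55 and 1.1) and Birc3 (1.6, 1.05 and 0.8) had the same order of times.

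Aldh3a1, Nqo1 and Xdh, enzymes of the AhR battery, had the opposite order. Aldh3a1 gave 1.6, 1.95 and 2.6, Nqo1 0.6, 1.5 and 1.7, and Xdh 0.6, 0.75 and 0.9 at 2, 4 and 6 h. Gpc1 (1.3, 1.9 and 2.4), Grem1 (0.6, 1.2 and 1.6) and the imprinted zinc finger gene Peg3 (0.1, 1.5 and 2.2) shared it. The Dioxane arrays of Peg3, at 3.8, 3.5, 3.1 and 3.5, were below the filter of 4. Peg3 was thus tested only through its TCDD arrays, and its size is uncertain. Cyp1a1 was at 5.3, 6.05 and 5.9, and its first value was the lowest. Of the lower genes, Id1 (-1.8, -0.65 and -0.4), Il6 (-1.6, -0.7 and -0.6) and Rgs4 (-1.5, -1.25 and -0.9) were farthest from 0 at 2 h, and Ccn2 (-0.3, -0.7 and -1.3) at 6 h.

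These courses rest on 1 TCDD array per time, and the change of the effect per hour was tested with limma over the same 7 arrays. No probe set passed (0 of 15762, 0%; smallest adjusted p = 0.461), also not with trend and robust moderation, and 1526 had an unadjusted p under 0.05. The largest slopes in log2 per hour were those of Cdkn1a (-0.60 ± 0.17 SE), Hspa1b, a heat shock protein (-0.55 ± 0.24, 1427127_x_at), Peg3 (0.53 ± 0.10), Resf1, a regulator of retroelement silencing (0.45 ± 0.03), Nrep, a neuronal regeneration protein (-0.43 ± 0.05), and the syndecan gene Sdc4 (0.40 ± 0.15). The kinase Rock1 (0.40 ± 0.07), Klf9 (-0.38 ± 0.08), the histone methyltransferase Kmt2a (0.38 ± 0.10) and the ribosomal Rps10 (-0.38 ± 0.05) followed. The slope of Peg3 starts from Dioxane levels below the filter and is uncertain in size. The slope of Hspa1b came from the 6 h Dioxane array, which stood at 8.4 against 6.7 to 6.9 in the other Dioxane arrays and 6.7, 6.9 and 6.1 with TCDD.

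**Figure D3:**
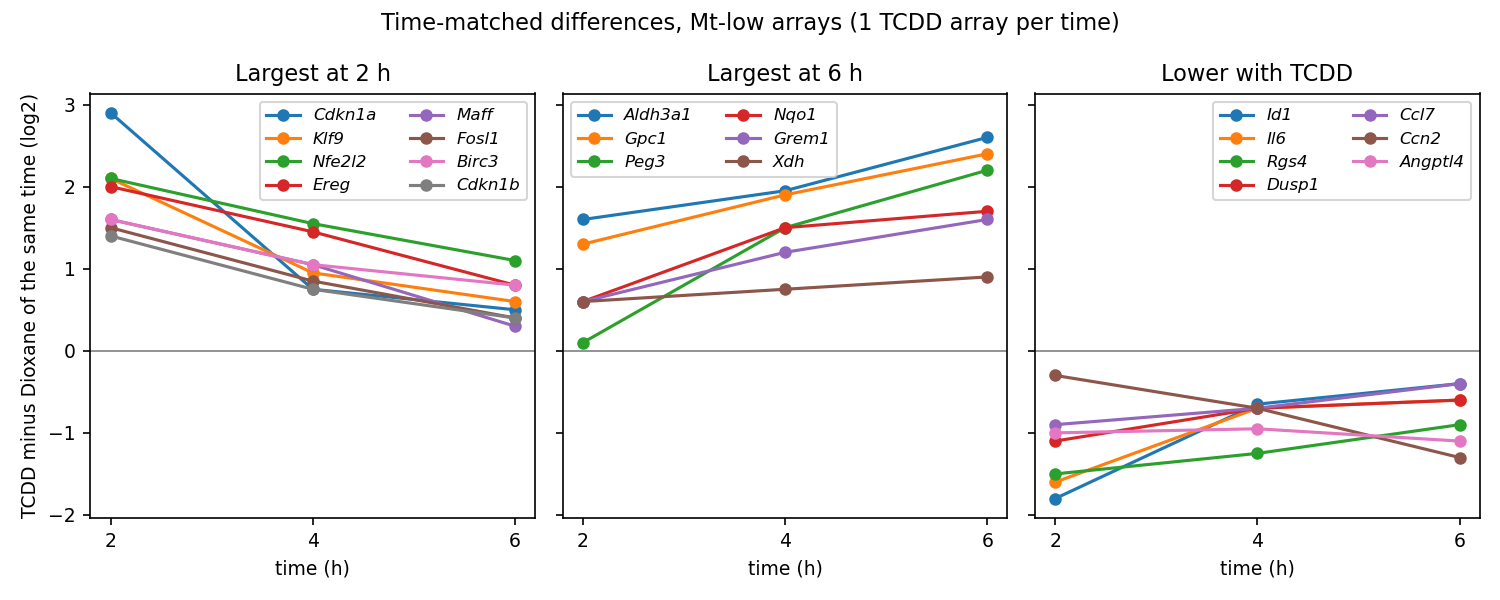
Difference between the TCDD array and the Dioxane level of the same time (log2) against time in hours, Mt-low arrays, for named genes in 3 panels by the course of the difference. Cdkn1a goes through 2.9, 0.75 and 0.5, Aldh3a1 through 1.6, 1.95 and 2.6, and Id1 through -1.8, -0.65 and -0.4; no slope passed the test.

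The Mt-high arrays gave values at 2 and 6 h that share no array with those above. Cyp1a1, Tiparp, Cyp1b1 and Aldh3a1 of the AhR target list, and Cpox of the haem list, were higher with TCDD in them too. Cyp1a1 differed by 5.9 and 4.9 there, Tiparp by 3.1 and 3.0 (1426721_s_at), Cpox by 1.9 and 1.9 (1422492_at), Cyp1b1 by 1.7 and 1.8 (1416613_at), and Aldh3a1 by 1.6 and 1.9. Tiparp differed by 3.9 and 3.6 at 1452160_at and by 3.7 and 2.6 at 1452161_at. Both of these probe sets were tested only through their TCDD arrays, and their sizes are uncertain. In a limma fit over the 12 arrays 4 probe sets passed for the effect in the Mt-high set, 3 of which were among the 18 above: Cyp1a1 (5.54 ± 0.26), Cpox (1.95 ± 0.18) and Cyp1b1 (1.64 ± 0.18). Aldh3a1 was the other (1.87 ± 0.23, adjusted p = 0.024). Without the TCDD array of 4 h, which has no Mt-high Dioxane partner and was left out after its levels were seen, 8 passed (limma), with Cyp1a1 at 5.40 ± 0.25, Cpox at 1.90 ± 0.18, Cyp1b1 at 1.75 ± 0.17 and Aldh3a1 at 1.75 ± 0.22.

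Other genes stood apart between the sets at 2 h. Vnn1 differed by -0.1 and 0.4 at 2 and 6 h in the Mt-high arrays, Nr3c1 by 0.0 and 0.8 (1421867_at), Rnpc3 by -0.1 and 0.9, Angptl4 by 0.0 and -0.7, and Ackr3 by 0.3 and -0.6. Of the 17 probe sets called higher, 14 were above 0 in the Mt-high arrays at both times, against 1984 (12.6%) of all tested; 2147 (13.6%) were below 0 at both.

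The difference of the TCDD effect, Mt-low minus Mt-high, was tested as an interaction over the 12 arrays, and 0 probe sets passed (0%; smallest limma adjusted p = 0.92; 522 with an unadjusted p under 0.05; 0 also with trend and robust moderation). No response can therefore be called particular to the Mt-low arrays, and since the sets were made from measured values the p is not independent of them. The 10 genes of largest difference were Dcn, Gsdme, Cdh11, Ackr3, Pik3ca, Cavin2, Ogn, Sh3bgrl, Vnn1 and Top2b. Decorin, Dcn, a small proteoglycan of fibrous matrix, gave 0.7, 0.85 and 0.3 in the Mt-low arrays and -1.2 and 0.2 in the Mt-high arrays, a difference of 1.51 ± 0.61. For Vnn1 it was 1.25 ± 0.29, for Ackr3 -1.32 ± 0.40, and for the cadherin gene Cdh11 1.37 ± 0.31. These fits include the Mt-high TCDD array of 4 h, which has no Mt-high Dioxane array at its time and stood below the other 11 arrays for 8 of the 10 genes, for example at 8.4 for Dcn (9.7 to 11.4 in the others), 6.5 for Ogn (8.0 to 9.3), 4.0 for Cavin2 (4.6 to 7.9) and 3.6 for Sh3bgrl (5.5 to 7.6). Without it the difference was 1.14 ± 0.36 for Dcn, 1.09 ± 0.19 for Vnn1, -1.14 ± 0.33 for Ackr3, 1.34 ± 0.32 for Cdh11 and 0.77 ± 0.59 for Sh3bgrl, against 1.28 with it, and again 0 probe sets passed (limma). In each of the 10 the Mt-high difference at 2 h had the opposite sign to all 3 Mt-low differences. Choosing genes by the largest set difference favours such signs, so this is a description only.

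**Figure D4:**
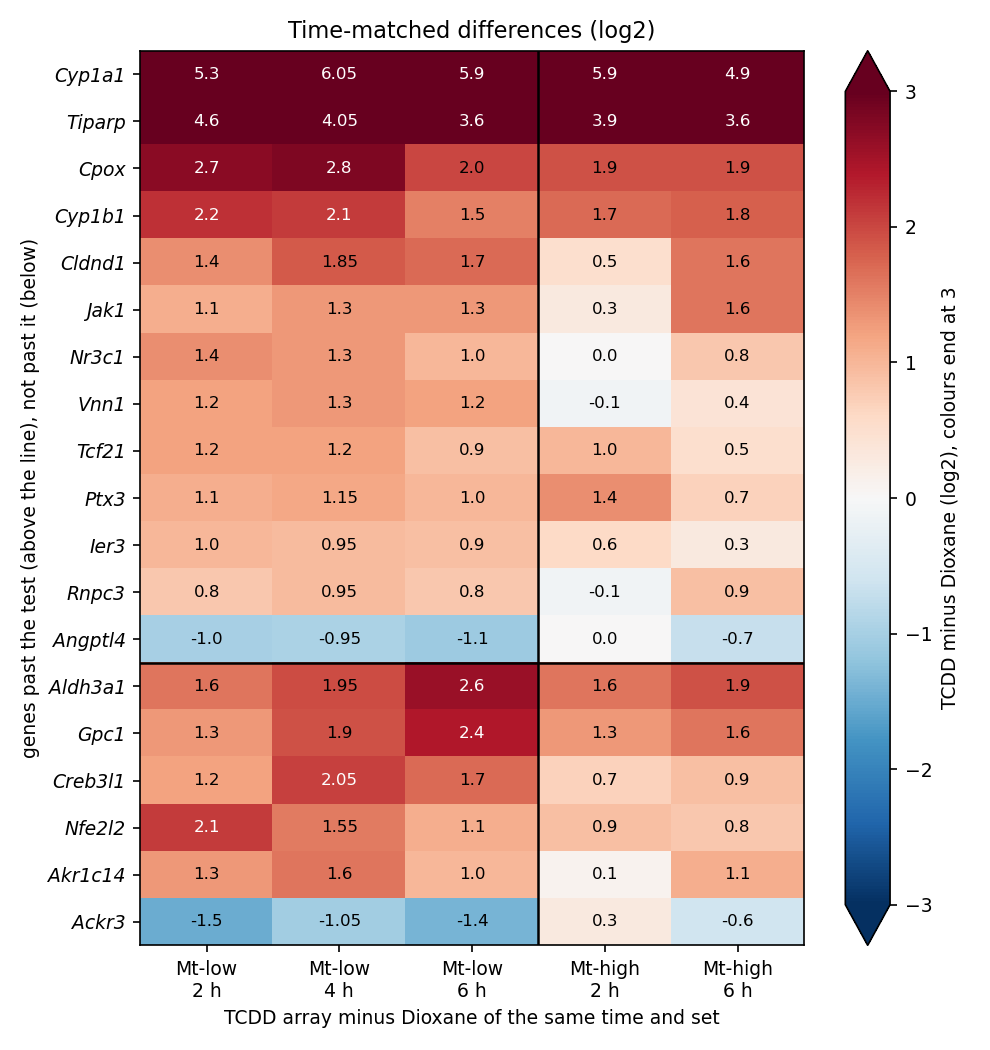
Time-matched differences, TCDD minus Dioxane (log2), of the 13 genes past the test (above the line) and 6 that differed by at least 1 at all 3 times without passing (below), in the 3 Mt-low and 2 Mt-high comparisons, 1 probe set per gene. Cyp1a1 and Tiparp (1452160_at, tested only through its TCDD arrays) are at 3.6 or more in all 5 columns. Vnn1 and Rnpc3 are at -0.1 in the Mt-high 2 h column.

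The smaller differences were mostly above 0 in the Mt-high pair of 6 h, and at 2 h their share above 0 was below that of all probe sets. Of the 155 probe sets that were at least 0.5 higher at all Mt-low times, 62 (40%) were above 0 in the Mt-high pair of 2 h, where 45.5% of all tested were, and 149 (96.1%) in that of 6 h, where 37.4% of all were. Without the 17 called, all of which are among the 155, these numbers were 48 (34.8%) and 132 (95.7%) of 138. The medians of all 155 were 0.7, 0.95 and 0.7 at 2, 4 and 6 h in the Mt-low arrays. In the Mt-high arrays they were -0.1 and 0.9 at 2 and 6 h, and -0.25 and 0.9 for the 138. An unadjusted interaction p under 0.05 was reached by 30 of the 155 and an adjusted one by 0. The 17 probe sets called higher had medians of 1.4, 1.75 and 1.3 in the Mt-low arrays and of 1.3 and 1.5 in the Mt-high arrays.

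The poly-A controls also differed between the sets and between the comparisons. Their level ran from 8.683 to 9.5 over the Mt-low arrays and from 7.025 to 8.675 over the Mt-high arrays. The 3' minus 5' difference for actin was 0.7 to 0.8 in the Mt-low arrays and 0.5 to 0.6 in the Mt-high arrays. The part of these measures in the difference between the sets was not tested. TCDD minus Dioxane for the controls was -0.57, -0.66 and -0.36 at 2, 4 and 6 h in the Mt-low arrays, and 0.87 at 2 h and -0.88 at 6 h in the Mt-high arrays. The 155 probe sets were chosen as higher at all Mt-low times, so only their 2 Mt-high medians, -0.1 and 0.9, are free of that choice. The 19 probe sets at least 0.5 lower at all Mt-low times had medians of -0.7, -0.65 and -0.7 there. In the Mt-high pairs of 2 and 6 h the medians of these 19 were -0.2 and -0.6. The part of the controls in these values was not tested. Across the 15762 probe sets, which share the arrays and their normalization within a comparison, the differences of the Mt-low pairs correlated with each other at r = 0.54 (2 and 4 h), 0.31 (2 and 6 h) and 0.49 (4 and 6 h). With the Mt-high pair of 6 h r was 0.41, 0.63 and 0.47, and with that of 2 h it was -0.00, -0.21 and -0.10. Between the 2 Mt-high pairs r was -0.24. Without the called probe sets the Mt-high pair of 2 h gave -0.07, -0.28 and -0.17 with the Mt-low pairs. Genes are not independent replicates, and no p is given.

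**Figure D5:**
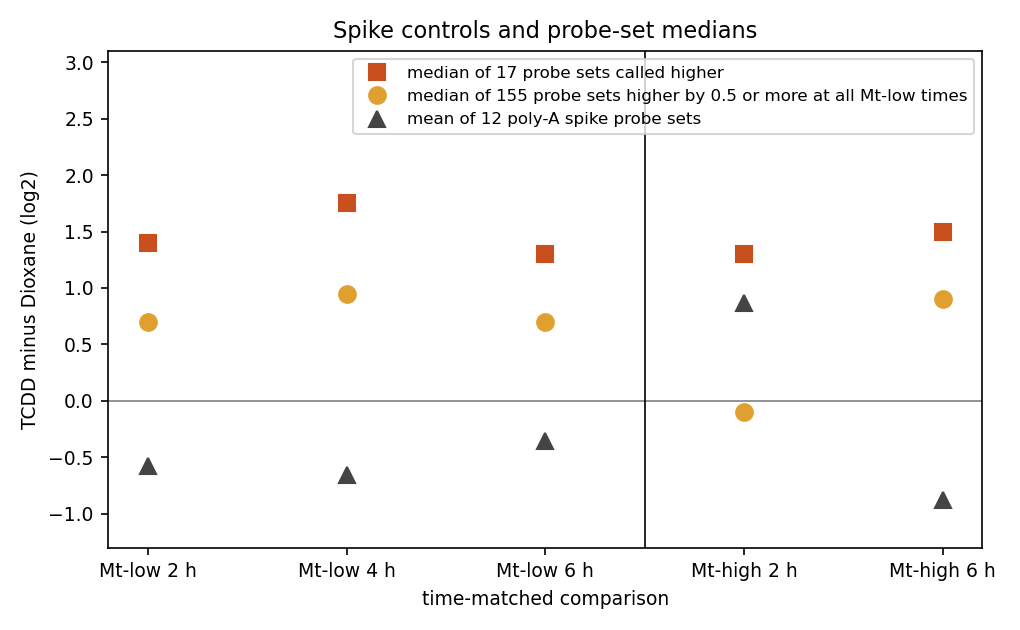
TCDD minus Dioxane (log2) in the 3 Mt-low and 2 Mt-high comparisons for the mean of the 12 poly-A control probe sets, the median of the 17 probe sets called higher and the median of the 155 that were at least 0.5 higher at all Mt-low times. In the Mt-high pair of 2 h the controls are at 0.87 and the 155 at -0.1, while the called probe sets are at 1.3.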

How the data were processed

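RNA was measured on 12 Affymetrix arrays in 6 groups of 2. The authors' deposited values are log2 levels of probe sets with 1 decimal; per the submitters' processing notes RMA was used (version not given). RMA equalises the arrays, so a common shift of all genes is hidden, and the median was 5.1 on every array. Rounding left 147 probe sets with no residual spread in the main comparison and 457 in that of slopes. No depth applies to arrays, and their number limits the precision. All 12 value columns were used.

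The array holds 22690 probe sets, of which 64 are controls and were not tested; the platform annotation gives 20380 of the other 22626 1 gene symbol, 691 several and 1555 none, and 20351 of those with 1 symbol matched RefSeq (GRCm38.p6). Tested were the 15762 with a mean log2 of at least 4 over the 12 arrays (14495 with 1 symbol, 9391 genes). limma 3.58.1 (R 4.3.3) fitted 3 models: time as a factor plus treatment (3 residual degrees of freedom, prior degrees of freedom 2.17, prior SD 0.10), treatment by hours (2), and treatment by array set over 12 arrays (6). Tests were two-sided with Benjamini-Hochberg adjustment. Errors of changes are SE and of levels SD; folds are 2 to the power of the change.

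The members and lists were chosen with earlier results of these data known. Named were genes past the test with separate groups, then genes at least 1 apart at all 3 times (up to 30 genes), all AhR targets, of each other list those called and the 3 with the largest changes, and the 10 largest of each interaction. Of these, Rnpc3 and 1436448_a_at are named as the remaining calls, and marker genes as examples, after their values were seen. Over the tested probe sets, first minus second array with TCDD correlated with that with Dioxane at r = 0.37, 0.16 and 0.71 at 2, 4 and 6 h. The replicate numbers of the titles were therefore used as pairs in the block setting. The main test had no term for pairs. At 2 and 6 h, however, the first array is Mt-low and the second Mt-high in both treatments, which enters these correlations, so the pairing of the 3 Mt-low pairs is not certain. Alternatives changed the time term, block, filter, normalization, moderation, threshold, labelled time and single arrays. On simulated data with 15762 probe sets the main comparison recovered 88% of changes of 1 and 100% of changes of 2 with 5 false calls, the slopes 33% at 0.5 and 80% at 1 per hour with 0, and the set difference 53% at 1 and 99% at 2 with 7. The simulated probe sets were independent, with the moderated spread of the fit and 100 planted changes of each size. They had no pairs and no shift shared within an array, so these numbers need not hold for the measured data.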

Additional observations from a re-analysis of the deposited data

Results flagged for a closer look

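Single arrays stood far from the other arrays of their group in 18 of the 158 named probe sets examined, over the 4 Mt-low Dioxane arrays; about 1 in 20 would by chance, and rounding to 1 decimal makes ties that raise this share. The 6 h Dioxane array was high for the heat shock genes Hspa1b (8.4 at 1427127_x_at against 6.7 to 6.9, and 8.6 at 1452318_a_at against 6.9) and Hspd1 (10.5 against 10.0). It was also high for Top2a, a gene of dividing cells (8.2 against 7.5 to 7.6), for Cpox (6.0 against 5.6) and for Cxcl12 (12.6 against 12.3), and low for Slc7a5 (8.6 against 8.8) and Krt14 (4.1 against 4.3). This is the array whose description gives 4 h.

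The 2 h Dioxane array was low for Tcf21 (7.2 against 7.8 to 7.9), Cdkn1a (4.4 against 4.9 at 1421679_a_at), B2m of antigen presentation (9.8 against 10.3 to 10.4), Ccl7 (6.9 against 7.2), Rgs16 (3.9 against 4.2) and Tiparp (3.7 against 3.8), and high for Il6 (6.3 against 6.0). It was the 1 Dioxane array of its time, so array and time cannot be told apart. At 4 h the first Dioxane array was apart by 0.1 for Ddit4 (7.3 against 7.2) and Cdkn1b (8.2 against 8.3), and the second stood at 4.4 against 3.7 to 3.8 for Scd1, a fatty acid desaturase.

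In 5 named probe sets the TCDD effect had one sign at all Mt-low times and the other at both Mt-high times. They were positive in the Mt-low arrays, and Mt-low minus Mt-high was 1.37 for Cdh11, 1.30 for Cavin2, 1.10 for Lum, 0.77 for Pdgfra and 0.48 for Cxcl12 (1417574_at). None passed the limma interaction test (adjusted p = 0.92 for each).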

How the results depend on the processing

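Against 18 calls (17 higher, 1 lower; 3 AhR targets), no time term gave 40 (34, 6; 6), quantile normalization of the 7 arrays 148 (123, 25; 7) and limma with trend and robust moderation 1366 (994, 372; 7). The 12 arrays with the set as a term gave 27 (26, 1; 6), and a threshold of 10 for Mt1, which adds the second 2 h TCDD array, 26 (24, 2; 5). With the 6 h Dioxane array as 4 h there were 6 (6, 0; 2). The replicate block gave 0 (0, 0; 0), and so did the poly-A control level as a covariate, while the 12 arrays with both set and control level gave 16; the 2 covariate settings were chosen after seeing the data. Leaving out each of the 7 arrays gave 0 to 1 calls (0 to 1 higher, 0 lower, and 0 AhR targets by the probe set of highest mean), 1 without the 4 h TCDD array and 0 without any other; each leaves 2 residual degrees of freedom, and where an array was alone at its time its partner no longer bears on the effect. Other filters and a threshold of 8, which keeps the same arrays, gave 16 to 19. The cause of these differences was not tested. In the 20 settings Cyp1a1 passed 11 times (adjusted p = 9.6e-12 to 0.816) and Cpox at 1422492_at 11 times (adjusted p = 4.8e-08 to 0.816). Of the values of single probe sets, called or at least 1 apart, in these settings 303 kept their side of the threshold, 38 passed newly and 198 no longer passed, and none changed sign. Slopes and the set difference gave 0 calls in every setting run, with smallest adjusted p from 0.0558 to 0.592 for slopes and from 0.141 to 1 for the set difference; the replicate block, run for the set difference, changed no call. The median change of the AhR targets, 1.29, was 0.08 with no filter and 0.91 with the control level as a covariate. Signal limits Cyp1a1, Tiparp, Rnpc3, Rgs4 and Peg3, which are near or below the filter in 1 group.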

Other observations

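Among the interferon and antigen presentation genes B2m, the light chain of MHC class I, was 11, 11.4 and 11.5 with TCDD and 10.6, 11.1, 10.9 and 11.3 with Dioxane (1449289_a_at, 0.34 ± 0.08, limma adjusted p = 0.123), and its other probe set gave 0.45 ± 0.06 (0.0908). Of the hypoxia list, Ndrg1 gave differences of 1.0, 0.9 and 0.2 at 2, 4 and 6 h (1423413_at), with 0.72 ± 0.17 (0.123). The mTOR inhibitor gene Ddit4 gave 0.9, 0.35 and 0.4 and separate groups (0.53 ± 0.12, 0.122). The fibroblast genes Lum (0.5, 0.65 and 0.5) and Pdgfra (0.3, 0.6 and 0.4 at 1421916_at) were higher with TCDD at each Mt-low time and lower at both Mt-high times (-0.7 and -0.4 for Lum, -0.5 and -0.2 for Pdgfra). The brighter probe set of Pdgfra, 1421917_at, gave 0.7, 0.55 and 0.1 in the Mt-low arrays and -0.5 and 0.0 in the Mt-high arrays. Over the 16 fibroblast and mesenchyme markers, each by its brightest probe set, the median change was 0.04, and 0 had all TCDD arrays above and 1 all below the Dioxane arrays.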
